A study of Mus musculus with 6 samples.

Results

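The DNA replication machinery described here is a set of 47 genes, made up of 15 that license replication origins, 18 that work at the fork, 9 that encode subunits of the polymerases and primase, and 5 that encode enzymes of nucleotide supply. They were chosen by gene symbol as known parts of this machinery. The rule itself uses no measured value, although earlier results of these data were known when it was set. All 47 were found among the 24786 gene symbols of the expression table, and all 47 were among the 10738 genes that were expressed highly enough to be tested.

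Messenger RNA was sequenced from Raw264.7 cells, a mouse macrophage line that was established from a tumor induced by Abelson murine leukemia virus and that the labels assign to strain C57BL/6. All cells received a lentivirus, which carried either a control shRNA (sh-NC, genotype control, 3 libraries) or one directed against *Etv5* (sh-Etv5, likewise 3 libraries), a gene that encodes an ETS family transcription factor. The labels place the measurements at 24 or 48 h after infection and name Lipofectamine, whereas the study's methods describe selection with puromycin and its text speaks of stably transfected cells. The sources do not state which shRNA was in the sequenced cells, or whether each library had its own infection, so that p-values measure the spread between these libraries. Values are in RPKM, reads per kilobase of gene relative to all mapped reads, and a log2 fold change is the difference in mean log2(RPKM + 1), sh-Etv5 minus sh-NC, which understates the change of genes with low values. Differences were called at a Benjamini-Hochberg adjusted p under 0.05 in limma.

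A cell prepares each replication origin in G1 phase, when the origin recognition complex (ORC), CDC6 and CDT1 load the ring of MCM2-7 proteins onto DNA, and geminin, the product of *Gmnn*, blocks CDT1 afterwards so that no origin is loaded again in the same cycle. In S phase CDC45 and the GINS complex turn each MCM ring into an active helicase, polymerase alpha with primase lays down primers, polymerases delta and epsilon copy the strands, and the sliding clamp PCNA, placed by the RFC clamp loader, holds them on DNA. RPA covers the single strands, FEN1 and DNA ligase 1 join the fragments of the lagging strand, and ribonucleotide reductase, thymidylate synthase, thymidine kinase and dUTPase supply deoxynucleotides and keep uracil out of DNA. Many of these genes are known targets of E2F factors, which are released from the retinoblastoma protein as cells enter the cycle.

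Macrophage markers were expressed in both groups, and the target of the shRNA was lower in sh-Etv5 cells. *Etv5* fell from 9.49 ± 0.367 to 5.13 ± 0.196 RPKM (SD, n = 3; log2 fold change -0.78, limma adjusted p = 2.74e-07). All 8 macrophage markers examined were expressed, of which 4 were lower and 4 higher in sh-Etv5 cells, among them *Csf1r* (log2 fold change -0.81), *Itgam* (1.88) and *Adgre1* (1.77). None of 12 markers of fibroblasts, epithelium, lymphocytes and endothelium reached the filter, and their highest group mean was 0.163 RPKM (sh-NC) and 0.703 RPKM (sh-Etv5), both for *Pecam1*. The RPKM values of a library summed to between 320462 and 322949 in sh-NC cells and to between 330454 and 340257 in sh-Etv5 cells.

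Replication genes were lower in sh-Etv5 cells nearly throughout. Of the 47 genes, 44 (93.6%) were lower and 1, *Orc4*, was higher in the limma test, whereas among all tested genes 41.0% were lower and 33.3% higher. *Orc1* and *Orc2* did not pass. In the same 44 genes every sh-Etv5 library lay below every sh-NC library, which held for 42.1% of all tested genes. The median log2 fold change was -0.55 over the 47 genes and -0.05 over all tested genes. In 29 of the 47 (61.7%) the gene was called and its log2 fold change was under -0.5, against 15.0% of all tested genes. Replication genes are well expressed in these cells, and among the 7795 tested genes with a mean of at least 5 RPKM 45.3% were lower, with a median log2 fold change of -0.08. Because RNA was extracted from the whole culture, fewer cells in S phase and less of each transcript per cell cannot be told apart.

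Added up, the 47 genes made up 2003, 1998 and 1990 RPKM across the sh-NC libraries and 1301, 1295 and 1329 RPKM across the sh-Etv5 libraries. Each sh-Etv5 library was thus well below each sh-NC library, and the summed level fell by 34.5%. The largest single fall was that of *Tk1* (61.0%), and 4 genes (*Tk1*, *Rfc5*, *Mcm7* and *Gins3*) fell by more than 1 on the log2 scale.

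**Figure D1:**
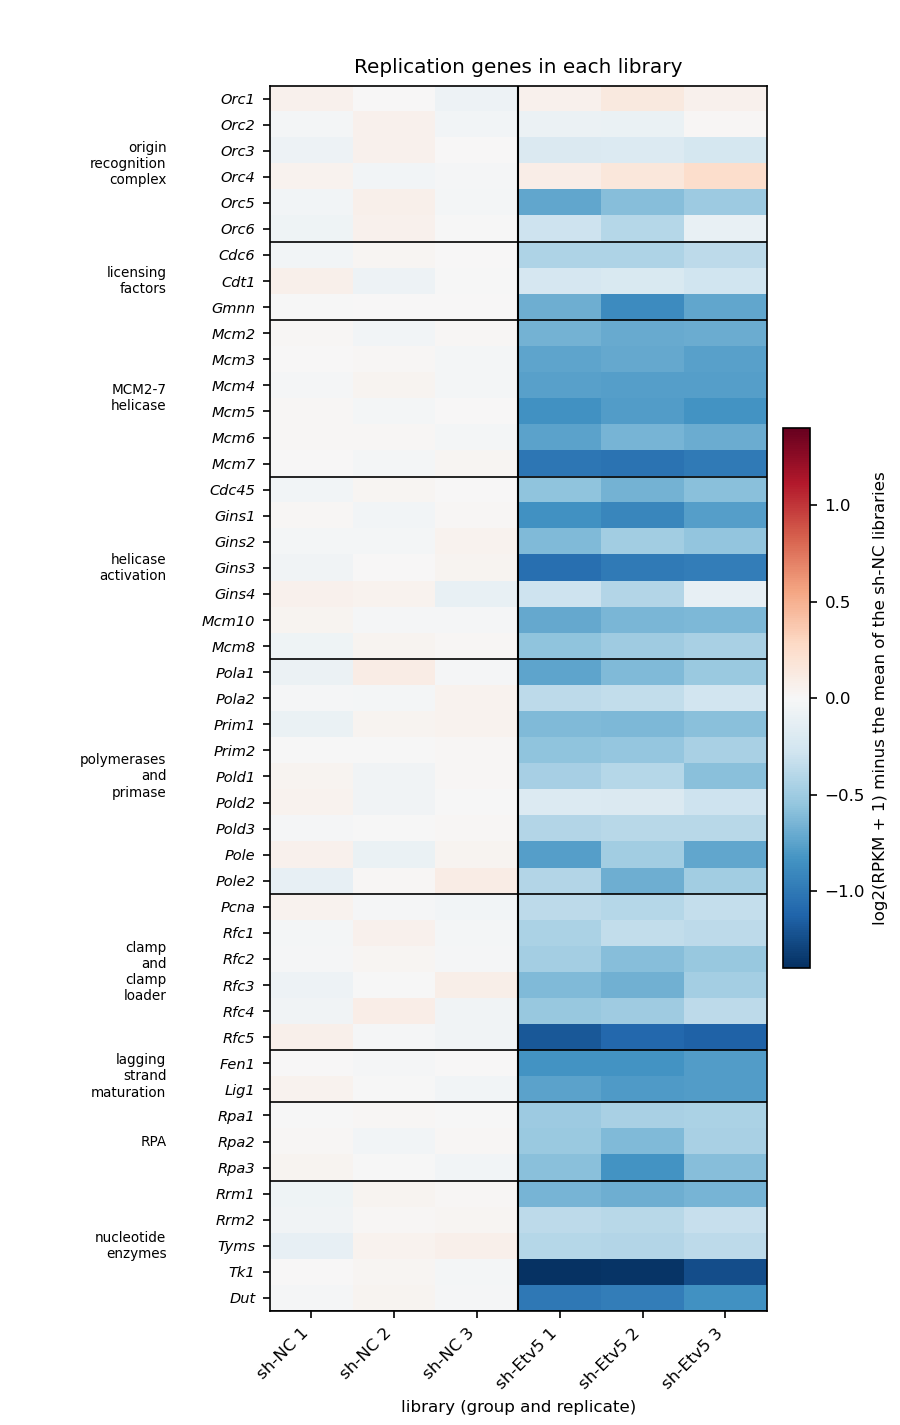
Level of each of the 47 replication genes (rows, grouped by role) in each library (columns), as log2(RPKM + 1) minus the mean of the 3 sh-NC libraries of that gene. The sh-NC columns are near 0, the sh-Etv5 columns are blue in nearly all rows, and in the ORC rows *Orc1*, *Orc2* and *Orc4* lack the blue color.

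Compared by class, the medians lay close together. The median log2 fold change was -0.66 for the nucleotide enzymes (range -1.33 to -0.36), -0.61 for the licensing genes (range -1.01 to 0.17), -0.57 for the fork genes (range -1.14 to -0.27) and -0.52 for the polymerases and primase (range -0.66 to -0.23). The ranges of the 4 classes overlapped widely. The genes of a class are not replicates, so that differences between classes were not tested, and the order of licensing and fork genes changed when sh-NC replicate 2 (-0.57 for licensing, -0.58 for fork) or sh-Etv5 replicate 1 (-0.55 and -0.57) was left out. By summed RPKM, nucleotide enzymes fell by 39.99%, licensing genes by 36.3%, fork genes by 32.6% and polymerases by 27.3%. All 18 fork genes, all 9 polymerase and primase genes and all 5 nucleotide enzymes were called lower, beside 41.0% of all tested genes. The exceptions were all subunits of ORC, and the counts by role given below stand beside the same share. Without the 6 ORC genes, a split made after the fold changes were seen, the median of the remaining 9 licensing genes was -0.74. Leaving out the complex that held the exceptions lowers this median by construction, so that it is not ranked among the classes.

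**Figure D2:**
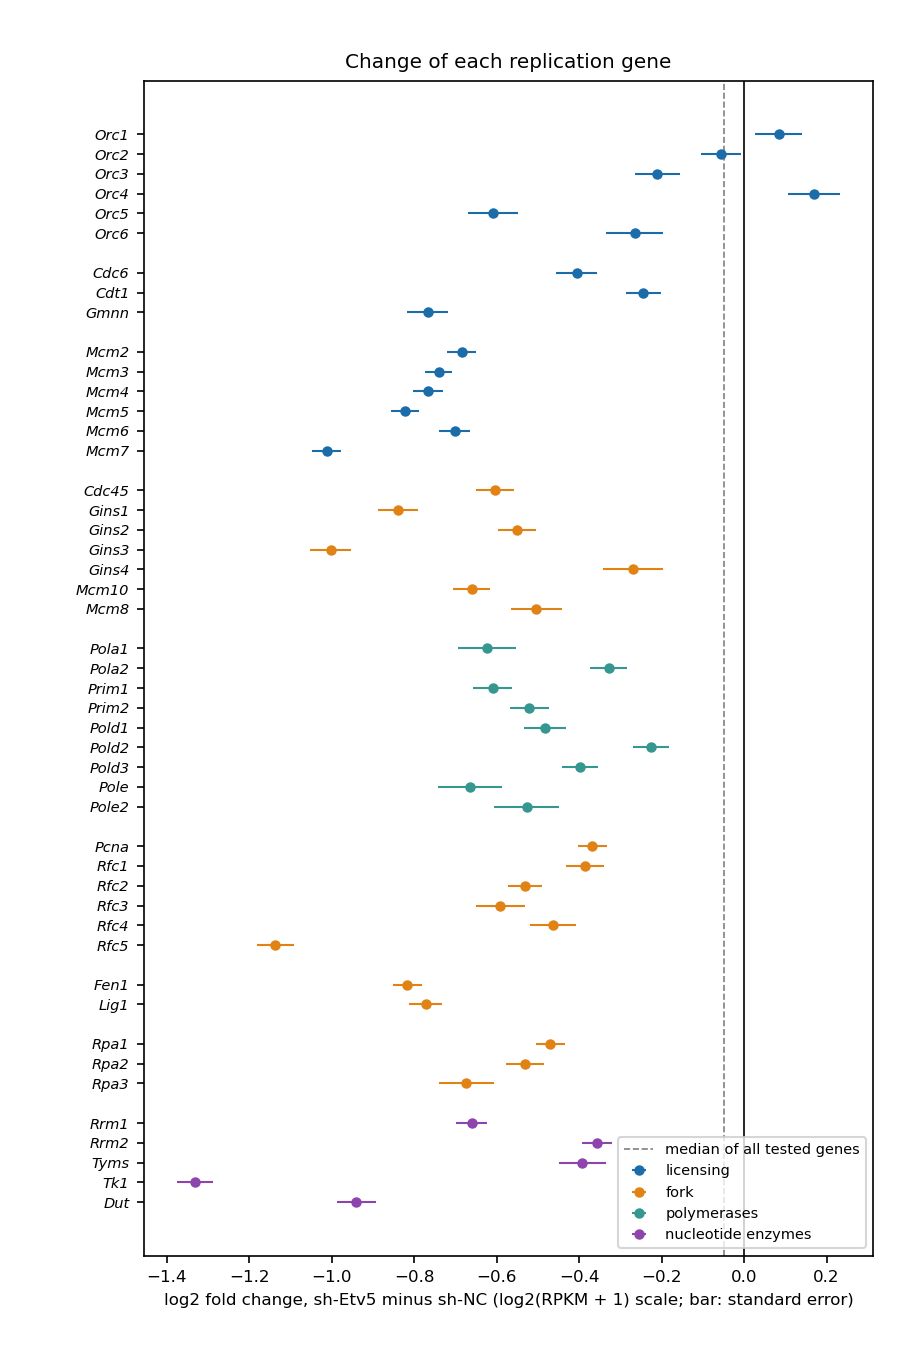
Log2 fold change (sh-Etv5 minus sh-NC, log2(RPKM + 1) scale) of each replication gene, with its standard error from limma as a bar and the class as color, in blocks by role. The dashed line marks the median of all tested genes at -0.05, and 44 of the 47 genes lie between -1.33 and -0.21, with *Orc2* close to the line and *Orc1* and *Orc4* above 0.

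The promoters of these genes were read, since many replication genes are known E2F targets and ETV5 is an ETS factor. RefSeq windows of 300 bases on GRCm38.p6, from 250 bases before to 50 bases after a transcription start, were matched by symbol to 39 of the 47 genes and gave 47 windows. They were searched on both strands for E2F letters (TTTCCCGC, TTTCGCGC, TTTGCCGC or TTTGGCGC), the CCAAT box (CCAAT) and ETS letters (CCGGAAGT). E2F letters were found in 16 of the 47 windows (34.0%), against 2.27% of all 32851 windows and 4.21% of the 10535 windows of tested genes. A CCAAT box was in 55.3% of the windows of replication genes, 37.4% of all windows and 38.4% of those of tested genes. ETS letters were in 9 of the 47 windows (19.1%), against 3.89% of all windows and 9.15% of those of tested genes. A match of letters is a description and does not show that a factor binds. Likewise, a window without these exact letters is not shown to lack a site for the factor. For 38 of the 47 windows, the bases after the start were found near the beginning of a GENCODE M21 transcript of the gene.

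A few of these promoters are printed to show what the E2F letters look like in genes that fell and in *Orc1*, which did not pass, beside *Rfc5*, which fell strongly and has none. Capitals mark the E2F matches, which can be on either strand, and each stretch is read 5′ to 3′ on the strand of its gene. In *Mcm5* and *Mcm6* a match on one strand overlaps a match on the other, so that 12 bases are in capitals.
Mcm5, chr8:75109326-75109397, plus strand: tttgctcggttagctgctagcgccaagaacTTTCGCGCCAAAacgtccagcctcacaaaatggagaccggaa
Mcm6, chr1:128359715-128359845, minus strand: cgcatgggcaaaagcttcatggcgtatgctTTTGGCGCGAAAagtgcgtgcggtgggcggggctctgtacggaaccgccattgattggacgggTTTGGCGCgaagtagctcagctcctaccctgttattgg
Pola1, chrX:93632256-93632323, minus strand: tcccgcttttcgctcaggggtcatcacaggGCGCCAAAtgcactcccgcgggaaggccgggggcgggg
Orc3, chr4:34614965-34614994, minus strand: ccatgcctcccTTTCCCGCacgccccgcct
Orc1, chr4:108579416-108579445, plus strand: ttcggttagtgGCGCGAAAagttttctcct
Rfc5, chr5:117389048-117389137, minus strand, with no match: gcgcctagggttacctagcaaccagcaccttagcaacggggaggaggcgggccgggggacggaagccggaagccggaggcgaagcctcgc

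Replication genes with and without E2F letters had medians close to each other. The 16 genes with a match had a median log2 fold change of -0.56 (range -1.01 to 0.08) and the 23 genes without one had a median of -0.53 (range -1.33 to 0.17). Of the 16 genes with a match, 15 were called lower, beside 44 of all 47 replication genes (93.6%) and 41.0% of all tested genes. This count thus does not set the genes with a match apart from the rest of the set. *Mcm5*, *Mcm6* and *Pola1*, printed above, fell by 43.9%, 39.1% and 38.0%, and *Orc3* by 15.0%, whereas *Orc1*, which did not pass the test, carries a match 20 to 27 bases before its RefSeq start. In GENCODE M21 *Orc1* starts at 108579423, so that by that annotation the same match lies within the transcript. *Tk1*, *Rfc5*, *Dut* and *Fen1*, with log2 fold changes from -1.33 to -0.82, have none of these letters in the windows read. With ETS letters the median was -0.53 (9 genes) and without them -0.57 (30 genes). With a CCAAT box it was -0.60 (24 genes) and without one -0.48 (15 genes).

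**Figure D3:**
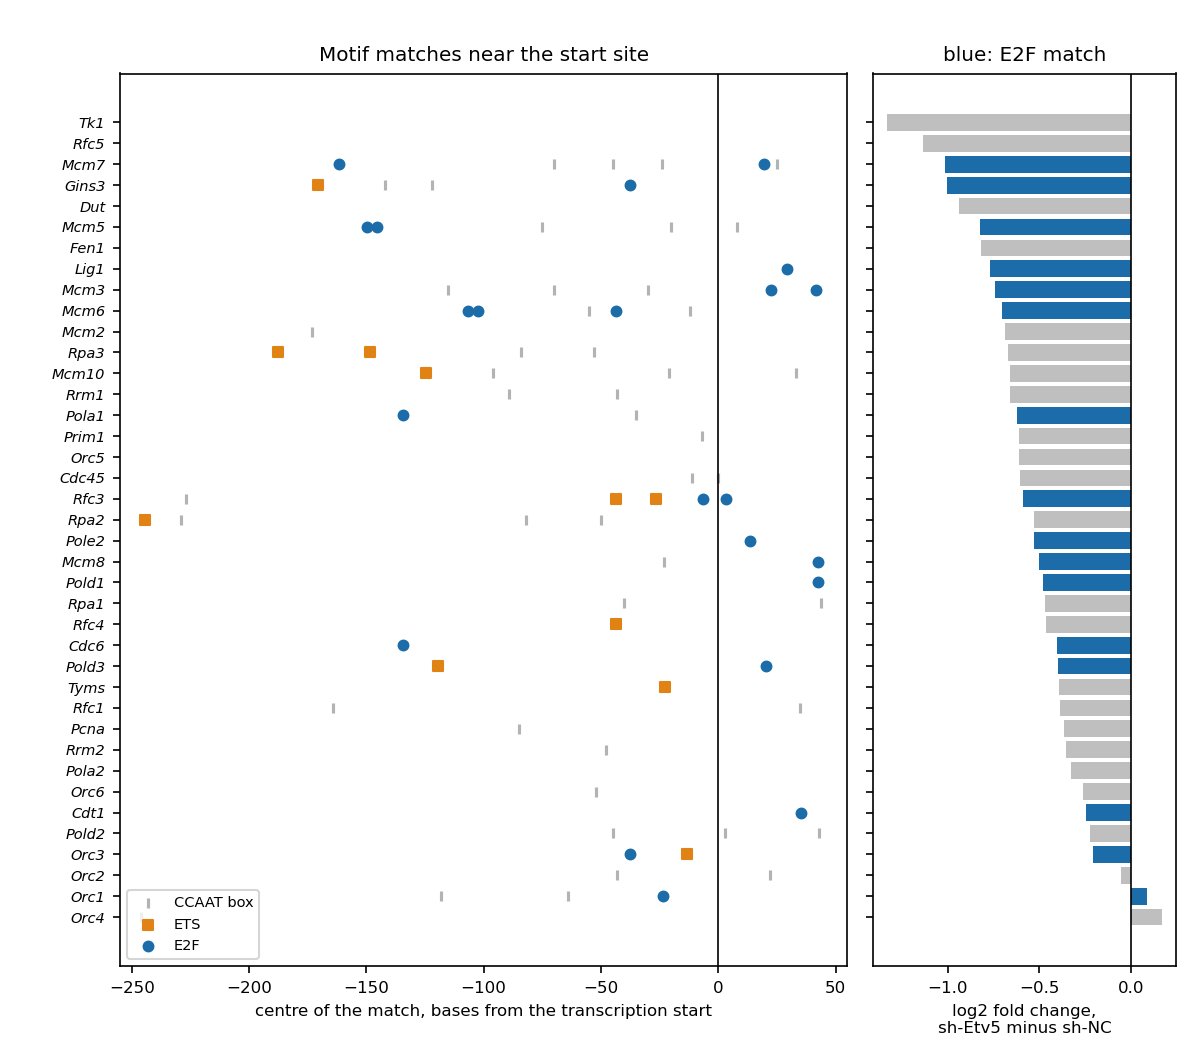
Left, centre of each match of the E2F (blue), ETS (orange) and CCAAT (gray) letters, in bases from the transcription start of its window (vertical line), for the 39 replication genes with a promoter window; right, log2 fold change of the gene (sh-Etv5 minus sh-NC), in blue where the gene has an E2F match. Blue bars stand among both large and small falls, and 12 of the 22 E2F matches lie before the start.

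The 6 subunits of ORC, which binds origins and recruits the loading factors, did not move together, with 3 lower, 1 higher and 2 not called. Among all tested genes 41.0% were lower and 33.3% higher, so that these counts alone do not set ORC apart from all tested genes. *Orc5* (GRCm38 chromosome 5, 22486485 to 22550429, minus strand) had 19.1, 20.7 and 19.3 RPKM across the sh-NC libraries, against 11.5, 12.7 and 13.6 RPKM across the sh-Etv5 libraries. The groups were well separated, and *Orc5* fell by 36.1% (log2 fold change -0.61, standard error 0.0611, limma adjusted p = 3.95e-06). Exons of *Orc5* overlap those of *Gm15421* on the same strand, so that reads of the shared stretches cannot be assigned. *Orc6*, whose product completes the complex, was at 19.8, 21.6 and 20.6 RPKM in sh-NC cells and at 16.8, 15.4 and 19.1 RPKM in sh-Etv5 cells. Its highest sh-Etv5 library came close to the lowest sh-NC library, and the gene fell by 17.3% (log2 fold change -0.26, limma adjusted p = 0.00491). *Orc3* fell by 15.0% (log2 fold change -0.21, limma adjusted p = 0.00449).

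*Orc4* (chromosome 2, 48902824 to 48950277, minus strand) was the only replication gene called higher. It was at 5.57, 5.16 and 5.26 RPKM across the sh-NC libraries, against 5.75, 6.09 and 6.53 RPKM across the sh-Etv5 libraries, so that the groups did not overlap but lay close together. The mean rose by 14.9% (log2 fold change 0.17, standard error 0.0631, limma adjusted p = 0.0307). This call was lost under 10 alternatives, of which 2 were stricter thresholds, and the log2 fold change was above 0 in each. The limma adjusted p was 0.117 with the same sum for each library, 0.051 with the replicate block, 0.0968 without sh-NC replicate 2, 0.0788 without sh-NC replicate 3, 0.0546 without sh-Etv5 replicate 2 and 0.102 without sh-Etv5 replicate 3. Exons of *Orc4* overlap *Acvr2a* and *Mbd5* on the opposite strand, and the library kit does not mark strand, so that reads of the shared stretches cannot be assigned. Of these, *Acvr2a* was higher (log2 fold change 0.28, limma adjusted p = 0.00469) with means of 1.51 RPKM (sh-NC) and 2.05 RPKM (sh-Etv5).

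*Orc1*, the largest ORC subunit, whose protein level is known to vary over the cell cycle, was at 7.79, 7.48 and 7.02 RPKM in sh-NC cells and at 7.80, 8.26 and 7.75 RPKM in sh-Etv5 cells. *Orc2* was at 18.2, 19.4 and 18.02 RPKM in sh-NC cells and at 17.4, 17.3 and 18.7 RPKM in sh-Etv5 cells. The groups overlapped for both genes. The log2 fold change of *Orc1* was 0.08 (95% confidence interval -0.04 to 0.21, limma adjusted p = 0.203) and that of *Orc2* was -0.06 (95% confidence interval -0.16 to 0.05, limma adjusted p = 0.323). Both intervals lie above the median change of the replication genes.

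*Cdc6*, *Cdt1* and *Gmnn*, the loading factors and their inhibitor, were all lower. *Gmnn* (chromosome 13, 24751845 to 24761923, minus strand) had 65.4, 65.8 and 66.1 RPKM across the sh-NC libraries, against 40.4, 35.2 and 39.3 RPKM across the sh-Etv5 libraries. The gap between the groups was much wider than the spread within them, and *Gmnn* fell by 41.8% (log2 fold change -0.77, standard error 0.0491, limma adjusted p = 9.31e-08). *Cdt1*, which geminin inhibits, was at 73.8, 66.7 and 69.8 RPKM in sh-NC cells and at 59.1, 60.4 and 57.4 RPKM in sh-Etv5 cells. It fell by 15.8% (log2 fold change -0.24, standard error 0.0425, limma adjusted p = 0.000322). *Cdc6*, an ATPase that loads the MCM ring together with ORC, was at 10.4, 10.9 and 10.7 RPKM in sh-NC cells and at 7.68, 7.67 and 8.06 RPKM in sh-Etv5 cells. It fell by 26.8% (log2 fold change -0.41, limma adjusted p = 2.41e-05).

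The 6 genes of the MCM2-7 ring, the motor of the replicative helicase, fell together and by similar amounts, with log2 fold changes from -1.01 to -0.69 and limma adjusted p-values of at most 2.08e-08. *Mcm7* (chromosome 5, 138164583 to 138172422, minus strand) had 69.9, 68.0 and 70.9 RPKM across the sh-NC libraries, against 33.9, 33.4 and 34.6 RPKM across the sh-Etv5 libraries. Replicates were nearly alike, and *Mcm7* fell by 51.2% (log2 fold change -1.01, standard error 0.0354, limma adjusted p = 7.46e-10). *Mcm5* (chromosome 8, 75109569 to 75128439, plus strand), with the doubled E2F letters printed above, had 97.8, 95.2 and 96.9 RPKM in sh-NC cells and at 53.4, 55.7 and 53.5 RPKM in sh-Etv5 cells, a fall of 43.9% (log2 fold change -0.82, standard error 0.0341, limma adjusted p = 2.86e-09). The smallest fall in the ring was that of *Mcm2*, from 86.5 ± 2.12 to 53.4 ± 0.842 RPKM (SD, n = 3; log2 fold change -0.69). Exons of *Mcm7* overlap *Cops6* and *Ap4m1* on the opposite strand, and *Mcm7* shares 18.1% of its 50-base sequences with other annotated genes, among them *Gm5487* and the microRNA genes *Mir93* and *Mir25* that lie within it. *Cops6* had means of 66.5 RPKM (sh-NC) and 66.7 RPKM (sh-Etv5) (log2 fold change 0.00, limma adjusted p = 0.914), and *Ap4m1* was at 5.64 and 4.91 RPKM.

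Within the ring the order of the transcript levels was nearly the same in both groups. In sh-NC cells RPKM decreased from *Mcm3* (123 ± 1.81 RPKM, SD, n = 3) through *Mcm5*, *Mcm2*, *Mcm7* and *Mcm6* to *Mcm4* (51.3 ± 1.26 RPKM), and in sh-Etv5 cells *Mcm6* and *Mcm7* changed places. In sh-NC cells *Mcm7* (69.6 ± 1.45 RPKM) and *Mcm6* (68.7 ± 1.14 RPKM) were within the spread of the libraries of each other, whereas in sh-Etv5 cells *Mcm6* (41.9 ± 1.44 RPKM) lay above *Mcm7* (34.0 ± 0.582 RPKM). The highest mean of the 6 was 2.39 times the lowest in sh-NC cells and 2.46 times the lowest in sh-Etv5 cells. Summed over the ring, RPKM fell by 42.2%, from 499, 494 and 494 in the sh-NC libraries to 285, 289 and 285 in the sh-Etv5 libraries. The summed level of the 6 ORC genes fell by 14.2%.

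The 7 genes of helicase activation were all lower, with a median log2 fold change of -0.60. *Gins3* (chromosome 8, 95633453 to 95645060, plus strand), a subunit of the GINS complex, was at 16.2, 16.9 and 17.3 RPKM across the sh-NC libraries, against 7.55, 7.97 and 8.08 RPKM across the sh-Etv5 libraries. The groups were far apart, and *Gins3* fell by 53.1% (log2 fold change -1.003, standard error 0.0501, limma adjusted p = 1.22e-08). *Gins1* was at 26.5, 25.4 and 26.5 RPKM in sh-NC cells and at 14.1, 13.4 and 14.9 RPKM in sh-Etv5 cells, a fall of 45.8% (log2 fold change -0.84, standard error 0.0482, limma adjusted p = 3.74e-08). The other GINS subunits fell as well, *Gins2* by 32.8% and *Gins4* by 17.6%. For *Gins4* the highest sh-Etv5 library (21.1 RPKM) almost reached the lowest sh-NC library (21.2 RPKM), and its call was lost without the filter on low values (limma adjusted p = 0.00626 with the filter and 0.0541 without it). *Cdc45*, the partner of GINS in the active helicase, fell by 35.7%, *Mcm10*, which assists helicase activation, by 38.4%, and *Mcm8*, whose product is better known from homologous recombination, by 34.4%.

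The 9 genes of the polymerases and primase, which start and extend the new strands, were all lower, and the largest fall among them was that of *Pole*. *Pole*, the catalytic subunit of polymerase epsilon on the leading strand, was at 14.1, 12.6 and 13.9 RPKM across the sh-NC libraries, against 7.49, 9.35 and 7.75 RPKM across the sh-Etv5 libraries. Despite the high value of sh-Etv5 replicate 2 the groups did not overlap, and *Pole* fell by 39.5% (log2 fold change -0.66, standard error 0.0768, limma adjusted p = 1.28e-05). Its accessory subunit *Pole2* was at 9.27, 10.3 and 10.9 RPKM in sh-NC cells and at 7.38, 5.95 and 6.92 RPKM in sh-Etv5 cells (log2 fold change -0.53, standard error 0.0793, limma adjusted p = 0.000106). *Pole2* shares 8.16% of its 50-base sequences with other annotated genes, among them *Gm49384*, whose exons overlap its own on the same strand. *Pola1*, the catalytic subunit of polymerase alpha, was at 11.1, 12.7 and 11.6 RPKM in sh-NC cells and at 6.69, 7.32 and 7.95 RPKM in sh-Etv5 cells, a fall of 38.0% (log2 fold change -0.62, standard error 0.0699, limma adjusted p = 9.93e-06). The accessory subunit *Pola2* was at 26.4, 26.1 and 27.6 RPKM in sh-NC cells and at 20.4, 20.7 and 22.1 RPKM in sh-Etv5 cells, a fall of 21.1% (log2 fold change -0.33, standard error 0.0449, limma adjusted p = 5.01e-05). Primase fell in both subunits, by 35.8% for *Prim1* and by 32.1% for *Prim2*. For polymerase delta, which copies the lagging strand, the falls were 29.0% for the catalytic subunit *Pold1*, 25.7% for *Pold3* and 14.8% for *Pold2*, the smallest of the 9 genes.

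All 6 genes of the clamp and its loader were lower, and the largest fall was that of *Rfc5*. *Rfc5* (chromosome 5, 117378103 to 117389047, minus strand), a small subunit of the loader, was at 42.9, 40.2 and 39.3 RPKM across the sh-NC libraries, against 17.4, 18.5 and 18.1 RPKM across the sh-Etv5 libraries. No sh-Etv5 library came near the sh-NC libraries, and *Rfc5* fell by 55.9% (log2 fold change -1.14, standard error 0.0452, limma adjusted p = 2.02e-09). *Rfc3* was at 21.9, 23.0 and 24.5 RPKM in sh-NC cells and at 14.7, 14.1 and 16.3 RPKM in sh-Etv5 cells, a fall of 35.0% (log2 fold change -0.59, standard error 0.0605, limma adjusted p = 4.73e-06). The other loader subunits fell by 31.4% (*Rfc2*), 28.4% (*Rfc4*) and 24.5% (*Rfc1*, the large subunit). Exons of *Rfc5* overlap those of *Wsb2* on the opposite strand, and *Wsb2* was higher in sh-Etv5 cells (from 24.1 to 31.2 RPKM, log2 fold change 0.36, limma adjusted p = 1.04e-05).

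*Pcna* had the highest level of all 47 genes in both groups, with means of 212 ± 6.76 (sh-NC) and 164 ± 3.64 RPKM (sh-Etv5, SD, n = 3), and its fall of 22.6% was smaller than the median of the 47 genes, which was 34.4% (log2 fold change -0.37, limma adjusted p = 2.44e-06). Of the 50-base sequences of *Pcna*, 19.1% also occur in the pseudogene *Pcna-ps2*, so that its level is less certain than those of most other genes of the set.

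The genes that finish the lagging strand both fell strongly. *Fen1*, the nuclease that removes the flaps of displaced primers, was at 66.3, 65.2 and 66.4 RPKM across the sh-NC libraries, against 36.5, 36.6 and 38.0 RPKM across the sh-Etv5 libraries (log2 fold change -0.82, standard error 0.0349, limma adjusted p = 3.54e-09). *Lig1*, the ligase that seals the nicks, was at 43.1, 41.4 and 40.5 RPKM in sh-NC cells and at 24.5, 23.7 and 23.8 RPKM in sh-Etv5 cells (log2 fold change -0.77, standard error 0.0396, limma adjusted p = 1.52e-08). Both were closely spaced within each group, and they fell by 43.9% and 42.5%. The subunits of RPA fell by 28.3% (*Rpa1*), 31.5% (*Rpa2*) and 39.0% (*Rpa3*). *Rpa3* was at 20.7, 19.96 and 19.6 RPKM in sh-NC cells and at 13.1, 10.8 and 12.9 RPKM in sh-Etv5 cells (log2 fold change -0.67, standard error 0.0672, limma adjusted p = 3.79e-06). *Rpa2* was at 41.0, 39.6 and 41.0 RPKM in sh-NC cells and at 27.9, 26.1 and 29.3 RPKM in sh-Etv5 cells (log2 fold change -0.53, standard error 0.0465, limma adjusted p = 1.27e-06). Of the 50-base sequences of *Rpa3*, 9.48% also occur in other genes.

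The nucleotide enzymes held both the largest fall of all 47 genes and some of the smaller ones. *Tk1* (chromosome 11, 117815526 to 117826092, minus strand), the cytosolic thymidine kinase of the salvage pathway, was at 81.3, 82.4 and 79.2 RPKM across the sh-NC libraries, against 30.5, 30.7 and 33.5 RPKM across the sh-Etv5 libraries. The highest sh-Etv5 library was far under the lowest sh-NC library, and *Tk1* fell by 61.0% (log2 fold change -1.33, standard error 0.043, limma adjusted p = 3.91e-10). *Dut* (chromosome 2, 125247190 to 125258608, plus strand), which encodes dUTPase, was at 37.7, 39.2 and 37.8 RPKM in sh-NC cells and at 18.5, 19.1 and 20.8 RPKM in sh-Etv5 cells, a fall of 49.1% (log2 fold change -0.94, standard error 0.0477, limma adjusted p = 1.39e-08). *Tyms*, thymidylate synthase of the de novo pathway, was at 12.5, 14.2 and 14.4 RPKM in sh-NC cells and at 10.1, 10.0 and 10.4 RPKM in sh-Etv5 cells. Its groups were separated by less than those of *Tk1*, and it fell by 25.7% (log2 fold change -0.39, standard error 0.0581, limma adjusted p = 9.54e-05). Exons of *Tk1* overlap *Afmid* on the opposite strand, whose mean was 2.48 RPKM with sh-NC and 3.22 RPKM with sh-Etv5, and 5.25% of the 50-base sequences of *Tyms* also occur elsewhere, among others in *Tyms-ps*.

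Both subunits of ribonucleotide reductase, which makes deoxynucleotides from ribonucleotides, were lower. *Rrm1*, the large subunit, was at 76.2, 81.6 and 80.5 RPKM across the sh-NC libraries, against 50.1, 49.2 and 50.3 RPKM across the sh-Etv5 libraries. *Rrm2*, the small subunit that cycles with S phase, was at 88.9, 93.1 and 93.2 RPKM in sh-NC cells and at 71.2, 69.9 and 73.1 RPKM in sh-Etv5 cells. The groups were apart for both genes, and *Rrm1* fell by 37.2% (log2 fold change -0.66, standard error 0.0368, limma adjusted p = 2.93e-08) and *Rrm2* fell by 22.2% (log2 fold change -0.36, standard error 0.0353, limma adjusted p = 3.54e-06).

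**Figure D4:**
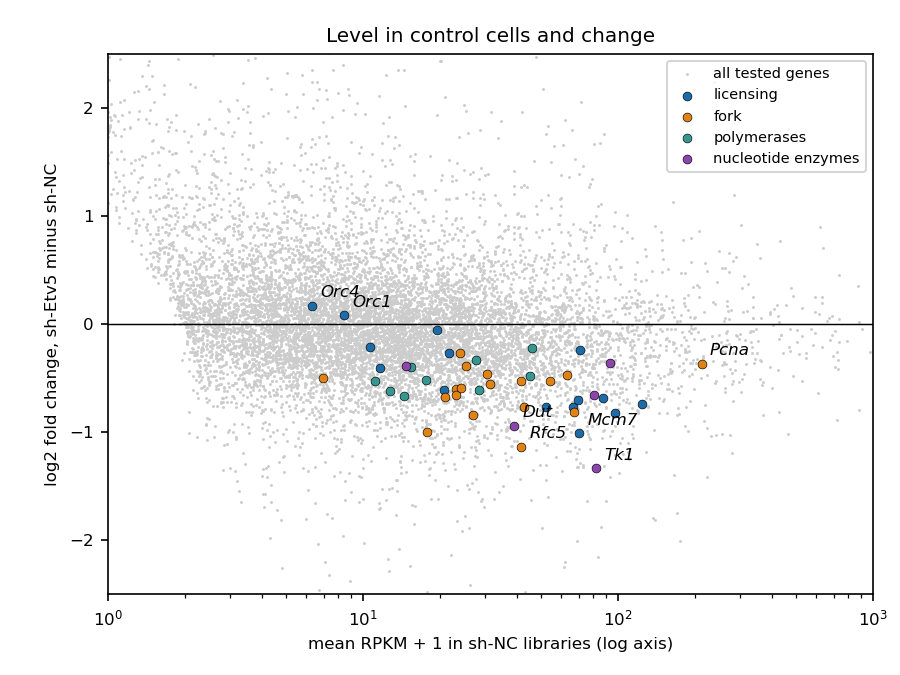
Log2 fold change (sh-Etv5 minus sh-NC) against the mean RPKM + 1 of the sh-NC libraries (log axis) for all tested genes within the drawn ranges (gray) and for the 47 replication genes (colored by class). The replication genes span means from 5.33 RPKM for *Orc4* to 212 RPKM for *Pcna*, and 45 of them lie below 0.

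Ratios of 2 genes within a library do not depend on how the library was scaled, and 6 ratios of partners were compared by an exact two-sided permutation test of 3 against 3 libraries, which cannot give a p below 0.1. The ratio of *Cdt1* to its inhibitor *Gmnn* was 1.13, 1.01 and 1.06 in the sh-NC libraries and 1.46, 1.72 and 1.46 in the sh-Etv5 libraries. It was higher in every sh-Etv5 library (mean 1.07 ± 0.0576 and 1.55 ± 0.147, SD, n = 3; log2 difference 0.54, exact p = 0.1, 0.12 adjusted over the 6 ratios). The ratio of *Tk1* to *Tyms*, salvage against de novo supply of thymidylate, was 6.48, 5.79 and 5.50 in sh-NC cells and 3.01, 3.05 and 3.22 in sh-Etv5 cells. It was lower in every sh-Etv5 library, with means of 5.92 ± 0.505 and 3.09 ± 0.109 (SD, n = 3; log2 difference -0.93, exact p = 0.1).

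The ratio of *Rrm2* to *Rrm1* was 1.17, 1.14 and 1.16 in sh-NC cells and 1.42, 1.42 and 1.45 in sh-Etv5 cells, and thus higher in every sh-Etv5 library (log2 difference 0.31, exact p = 0.1). The ratio of *Pola2* to *Pola1* was likewise higher in every sh-Etv5 library (mean 2.27 ± 0.193 and 2.89 ± 0.147, SD, n = 3; log2 difference 0.35, exact p = 0.1). The ratio of *Orc6* to *Orc2* was lower in every sh-Etv5 library (mean 1.11 ± 0.0262 and 0.958 ± 0.0683, SD, n = 3; log2 difference -0.22, exact p = 0.1). Each of these 5 ratios had the smallest p that the design allows. Ratios of other gene pairs were not compared, so that this count does not set these partners apart. Among all tested genes, 42.1% had every sh-Etv5 library below every sh-NC library. The ratio of *Pole2* to *Pole* was 0.656, 0.815 and 0.789 in sh-NC cells and 0.986, 0.637 and 0.893 in sh-Etv5 cells, and the groups overlapped (log2 difference 0.14, exact permutation p = 0.6). This difference rested on single libraries and was 0.0081 without sh-Etv5 replicate 1, 0.32 without sh-Etv5 replicate 2, 0.079 without sh-Etv5 replicate 3 and 0.040 without sh-NC replicate 1.

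**Figure D5:**
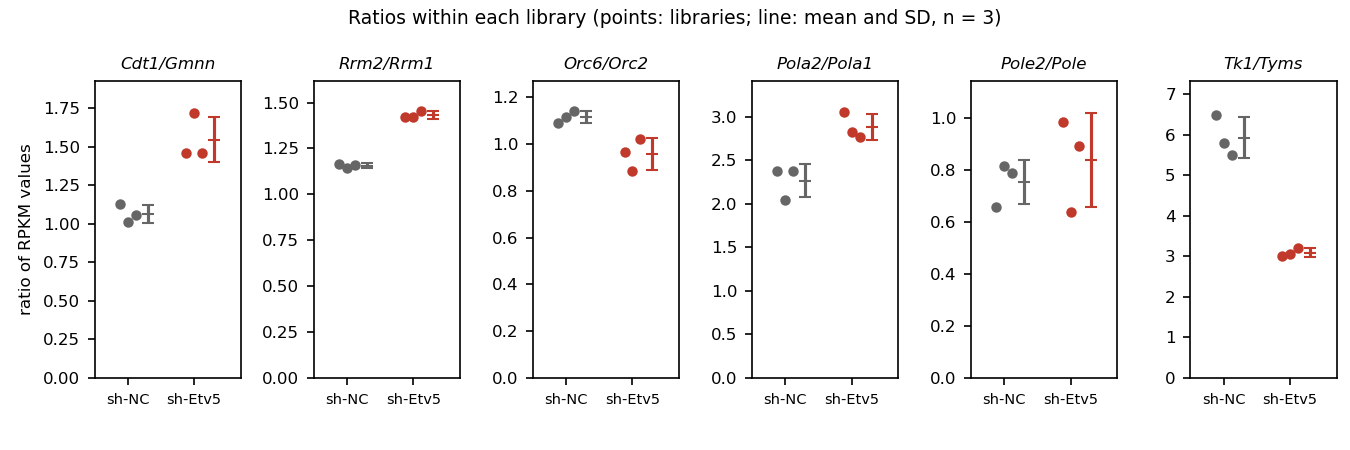
Ratios of RPKM values of 6 gene pairs within each library, with points for the 3 sh-NC (gray) and 3 sh-Etv5 (red) libraries and a line for their mean and SD; each axis starts at 0. The groups are apart for 5 ratios, with the widest gap for *Tk1* to *Tyms*, and overlap for *Pole2* to *Pole*.

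Genes outside the set that work beside these were read from lists of the same pathways. Their counts stand beside 41.0% lower and 33.3% higher among all tested genes, whose median log2 fold change was -0.05. Of 34 other fork and licensing genes, 27 were lower, 4 higher and 3 not called in limma, with a median log2 fold change of -0.54. Those that changed most were *Top2a*, a topoisomerase that untangles replicated DNA (log2 fold change -1.18), *Chaf1a*, a subunit of the histone chaperone CAF-1 (-1.05), and *Uhrf1*, which guides maintenance methylation (-1.02). Of 11 S phase kinases and their regulators, 8 were lower, 2 higher and 1 not called, with a median of -0.62. Here *Ccna2*, which encodes cyclin A2, fell from 72.2 ± 1.68 to 28.7 ± 0.182 RPKM (SD, n = 3; log2 fold change -1.30, limma adjusted p = 1.04e-10), and *Skp2*, a ubiquitin ligase subunit, had a log2 fold change of -1.34. *Cdkn1a*, which encodes the CDK inhibitor p21, rose from 76.4 ± 2.19 to 189 ± 4.55 RPKM (SD, n = 3; log2 fold change 1.30, limma adjusted p = 1.07e-10).

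Nucleotide metabolism outside the 5 enzymes was more mixed, with 17 of 24 genes lower, 5 higher and 2 not called, and a median log2 fold change of -0.40. *Dtymk*, the thymidylate kinase that acts after *Tk1* and *Tyms*, was lower (log2 fold change -0.99). *Tk2*, the mitochondrial thymidine kinase, was at 4.43, 4.08 and 4.60 RPKM across the sh-NC libraries, against 7.75, 8.53 and 8.41 RPKM across the sh-Etv5 libraries, and thus rose (log2 fold change 0.78, limma adjusted p = 6.76e-07) where *Tk1* fell. *Mthfd2*, a mitochondrial enzyme of one-carbon metabolism, rose from 58.4 ± 1.12 to 118 ± 4.79 RPKM (SD, n = 3; log2 fold change 1.01, limma adjusted p = 1.32e-09). Polymerases of repair, translesion synthesis and mitochondria had a median log2 fold change of -0.01, with 5 of 11 lower, 3 higher and 3 not called, which is close to the 41.0% lower and 33.3% higher of all tested genes. *Polm* (log2 fold change 1.05) and *Polk* (0.75) were higher and *Polg*, the mitochondrial polymerase, was lower (-0.62).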

How the data were processed

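RNA-seq libraries were made by the authors from polyA RNA with an Illumina TruSeq RNA v2 kit, which does not mark strand. The authors deposited RPKM values, 1 per gene symbol and library, taken from coverage tracks, and per the labels' processing notes the build was mm10. The aligner, annotation and use of strand in counting are not given in the sources used here. RPKM carries the scaling to mapped reads and gene length, and overlapping genes can share reads. The steps of low values below 0.05 RPKM were best matched by 18500000 to 22020000 reads per library, but only 21.4 to 24.2% of these values lay within 1% of a whole number of reads, so that depth is an estimate and no counting interval was computed.

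Genes that reached 1 RPKM in 3 or more of the 6 libraries were compared as log2(RPKM + 1) in limma 3.58.1 with R 4.3.3 (eBayes with trend, two-sided, Benjamini-Hochberg over 10738 genes), in a step tested on simulated data. Ratios were compared by exact permutation tests in Python 3.11.15 with SciPy 1.17.1, NumPy 2.4.6 and pandas 2.3.3. Loci were taken from GENCODE M21 on GRCm38, the build that mm10 names, and promoters from RefSeq on GRCm38.p6. Exons of 14 members overlap a gene on the opposite strand and those of 4 members a gene on the same strand. Over 5% of the 50-base sequences are shared with other genes in 5 members. The opposite-strand overlaps are in *Orc4*, *Mcm7*, *Rfc5* and *Tk1*, described above. They are also in *Orc1*, *Orc2*, *Orc6*, *Cdc45*, *Gins2*, *Pole*, *Rfc2*, *Rfc4*, *Fen1* and *Lig1*. The same-strand overlaps are in *Orc5*, *Mcm7* and *Pole2*, described above, and in *Rpa1* (with *Gm47300*). In each of these genes, reads of the shared stretches cannot be assigned.

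Members and lists were chosen with earlier results of these data known. Values per library are given for the 2 members of each role with the largest change, for the members of the 6 ratios and for each called member against the majority, and for the other lists the 3 genes with the largest change are named. *Orc1*, the members given by percentages, and the genes that overlap *Orc4*, *Mcm7*, *Rfc5* and *Tk1* were named beyond this rule. Tried as alternatives were the replicate block, each library left out, a smaller pseudocount (0.1 or 0.01), testing without a filter or with a mean of at least 5 RPKM, the same sum for each library, quantile normalization, rescaling by genes outside the top 10, no trend in eBayes, an adjusted p under 0.01 and an absolute log2 fold change above 0.5.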

Additional observations from a re-analysis of the deposited data

How the results depend on the processing

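Of 943 values for 63 named genes under 15 alternatives, 934 kept their direction and side of the threshold, 9 lost the call and 0 reversed, and the losses were in *Orc4* and *Gins4*. Between 43 and 44 replication genes were lower under each setting except a threshold of 0.5 on the log2 fold change. That threshold left 29 lower and 0 higher, and 1611 lower and 1711 higher of all genes. Without the filter, the count of 43 came from the lost call of *Gins4*. With a mean of at least 5 RPKM it came from *Mcm8*, which fell short of that mean and was not tested. The single higher call, *Orc4*, was lost (0 higher) without the filter, with the same sum, with quantile normalization, with the replicate block, at an adjusted p under 0.01 and, with a library left out, without sh-NC replicate 2 or 3 or sh-Etv5 replicate 2 or 3 (0 to 1 higher). With the same sum, all medians by class were lower, at -0.67 for licensing, -0.63 for fork, -0.58 for polymerases and -0.72 for nucleotide enzymes, as was that of all genes (-0.10). Pseudocounts of 0.1 and 0.01 gave -0.61 and -0.62 for fork and -0.56 and -0.56 for polymerases, and quantile normalization gave -0.50 for polymerases. With each library left out, the medians lay between -0.66 and -0.55 for licensing, between -0.59 and -0.55 for fork, between -0.55 and -0.48 for polymerases and between -0.69 and -0.64 for nucleotide enzymes. Beyond these constructions, the cause of each shift was not tested.

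With the replicate block, 4361 genes were lower and 3539 higher, among them 44 replication genes lower and 0 higher. Same-numbered libraries did not deviate together (correlations 0.0739, -0.0710 and -0.0352). These correlations cannot show whether same-numbered libraries were prepared together, which the sources do not state. Ratios of 3 against 3 libraries cannot pass 0.05. Depth limits the genes with the fewest reads most, and the estimated number of reads of a replication gene in a library ran from 162 for *Rpa3* to 9239 for *Rrm1*.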
